A study of Mus musculus with 4 samples.

Results

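The basophil and mast cell genes described here are 9 genes, Fcer1a, Ms4a2, Cd200r3, Cpa3, Mcpt8, Prss34, Hdc, Il4 and Gata2. They were chosen by symbol, each matched 1 row of the deposited count table, and all 9 of 9 were among the 13479 genes tested, out of 54532 genes in the table. Their values come from RNA sequencing of neutrophils of the bone marrow of wild-type (WT) mice. The cells received the amyloid peptide Aβ40, a fragment of the amyloid precursor protein that deposits in vessel walls, at 20 µg/ml for 4 h, or the solvent DMSO as the control. Each group held 2 libraries, called Aβ40 1, Aβ40 2, DMSO 1 and DMSO 2. The series' description states that the experiment asked how Aβ40 brings neutrophils to release extracellular traps. The labels give no further allele or agent, neither the age nor the number of the mice, and no method of isolating the neutrophils. Nothing in them ties the libraries of a group to separate animals or cultures, and the p-values below therefore reflect the spread between these samples alone, which may be technical.

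Basophils and mast cells are rare granulocytes that carry the high-affinity receptor for immunoglobulin E, FcεRI, on their surface. Antigen that crosslinks this receptor makes them release histamine, proteases and cytokines such as interleukin 4. Basophils mature in the bone marrow and circulate, whereas mast cells complete their maturation in tissues, where those of connective tissue and mucosa store large amounts of chymases and tryptases. Hdc is not exclusive to these cells: neutrophils and their precursors also transcribe it, so its level in neutrophil libraries cannot be assigned to basophils. Gata2 is likewise used by stem and progenitor cells of the marrow, Cpa3 by some progenitors, and Il4 by T cells and eosinophils.

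Depth was between 17212264 and 19524125 counts per library. A single count was worth 0.0523 to 0.0585 CPM (counts scaled by TMM to a common library size). Neutrophil transcripts were abundant: all 14 neutrophil markers were counted in every library, with a summed level of 149500 and 141900 CPM with Aβ40 against 144900 and 103900 CPM with DMSO. The 9 genes together took 16148 and 17558 counts in the Aβ40 libraries and 15821 and 15803 counts in the DMSO libraries. That was 0.0913% and 0.0916% of all counts with Aβ40 and 0.0810% and 0.0918% with DMSO.

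Promoter sequences are shown for the 6 genes whose Aβ40 and DMSO libraries did not overlap in CPM, because GATA2, the product of a gene in the set, binds DNA at short GATA sites. They are taken from RefSeq's GRCm38.p6 (mm10) and run from 250 bases before the start of the gene to 50 bases after it, 5′ to 3′ on the gene's own strand. All 9 genes had an entry, with 11 starts in all, and of the 2 listed starts of Il4 the outer one is printed. Capitals mark every match on either strand to 4 motifs, namely AGATAA and its variant AGATAG as well as TGATAA and its variant TGATAG. A match on the other strand appears as its reverse complement, so that AGATAA reads TTATCT. In Cd200r3 a pair of adjoining matches makes 1 run of capitals. The Fcer1a window is chr1:173227180-173227479 (minus strand), that of Ms4a2 chr19:11623670-11623969 (minus), that of Cd200r3 chr16:44943428-44943727 (plus), that of Cpa3 chr3:20242132-20242431 (minus), that of Prss34 chr17:25298144-25298443 (plus) and that of Il4 chr11:53618616-53618915 (minus).
Fcer1a: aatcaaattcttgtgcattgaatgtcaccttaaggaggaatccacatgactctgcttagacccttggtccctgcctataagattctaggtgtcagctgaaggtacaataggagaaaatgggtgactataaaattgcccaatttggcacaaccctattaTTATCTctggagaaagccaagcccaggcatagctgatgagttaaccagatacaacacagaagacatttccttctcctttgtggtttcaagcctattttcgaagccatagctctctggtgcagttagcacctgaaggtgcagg
Ms4a2: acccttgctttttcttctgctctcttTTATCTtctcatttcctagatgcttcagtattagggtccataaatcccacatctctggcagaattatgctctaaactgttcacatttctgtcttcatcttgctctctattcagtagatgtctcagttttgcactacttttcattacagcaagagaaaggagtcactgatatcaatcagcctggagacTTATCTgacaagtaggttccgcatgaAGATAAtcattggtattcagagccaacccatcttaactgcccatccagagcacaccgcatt
Cd200r3: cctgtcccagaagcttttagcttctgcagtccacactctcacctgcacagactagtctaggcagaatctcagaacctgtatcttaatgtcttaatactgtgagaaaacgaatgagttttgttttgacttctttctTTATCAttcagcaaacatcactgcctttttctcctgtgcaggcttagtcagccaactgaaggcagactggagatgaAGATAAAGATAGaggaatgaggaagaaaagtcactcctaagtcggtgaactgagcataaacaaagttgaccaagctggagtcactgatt
Cpa3: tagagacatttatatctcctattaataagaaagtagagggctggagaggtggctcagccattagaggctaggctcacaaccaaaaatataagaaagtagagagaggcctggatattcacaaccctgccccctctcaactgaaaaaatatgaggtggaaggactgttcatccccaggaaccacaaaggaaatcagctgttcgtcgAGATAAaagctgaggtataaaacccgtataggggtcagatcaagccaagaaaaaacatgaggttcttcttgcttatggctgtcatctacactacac
Prss34: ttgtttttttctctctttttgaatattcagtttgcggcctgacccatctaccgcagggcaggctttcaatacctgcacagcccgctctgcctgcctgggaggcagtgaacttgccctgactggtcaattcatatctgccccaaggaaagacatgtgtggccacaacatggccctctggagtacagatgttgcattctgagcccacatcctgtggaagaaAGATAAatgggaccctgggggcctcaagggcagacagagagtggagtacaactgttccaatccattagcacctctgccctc
Il4: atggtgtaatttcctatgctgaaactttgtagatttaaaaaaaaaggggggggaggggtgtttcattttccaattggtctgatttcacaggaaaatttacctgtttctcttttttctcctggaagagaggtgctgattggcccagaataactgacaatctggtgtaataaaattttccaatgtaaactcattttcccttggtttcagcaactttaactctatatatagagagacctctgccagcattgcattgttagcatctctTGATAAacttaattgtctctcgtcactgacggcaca

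Matches were present in all 6 printed windows, with 3 in Ms4a2, 3 in Cd200r3 and 1 in each of the other four. All 3 matches of Ms4a2 were AGATAA, of which the nearest began 11 bases before the gene's start. In Cpa3 and Prss34 the single AGATAA began 46 and 31 bases before the start, and in Fcer1a 92 bases before it. The match of Il4, TGATAA, began 14 bases after the start, and the inner start of Il4 held TGATAG 80 bases before it. Of the windows not printed, Hdc held 1 match, TGATAG, and Mcpt8 and both starts of Gata2 held 0. Among all 32851 RefSeq promoter windows of this length 29.8% held at least 1 of the 4 motifs, 11.2% held AGATAA and 1.76% held 3 or more matches. Such a match is a description of the letters and says nothing about binding.

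In the comparison of Aβ40 with DMSO, the receptor genes Fcer1a, Ms4a2 and Cd200r3, the granule enzyme gene Cpa3 and the cytokine gene Il4 were between 1.49 and 2.52 times as high with Aβ40. In contrast, the basophil proteases Mcpt8 and Prss34, which had the highest FPKM of the set, and Hdc and Gata2 had folds between 0.934 and 1.09. None of the 9 passed an adjusted p under 0.05 over all genes (edgeR quasi-likelihood test, Benjamini-Hochberg), in a comparison where 0.126% of tested genes were called higher and 0% lower. At an unadjusted p under 0.05, 5 of the 9 were higher, against 6.51% of all tested genes, and 0 were lower, against 5.72%. DESeq2 also called 0 of the 9 at an adjusted p under 0.05, where it called 0.757% of tested genes higher and 0.245% lower, and its lowest adjusted p was 0.0752, for Cpa3. The Aβ40 pair lay above the DMSO pair without overlap for 6 of the 9, against 23.2% of tested genes, and below it for 0, against 21.9%. The median log2 fold change was 0.57 over the 9 genes and 0.01 over all tested genes. The 9 were chosen with earlier results of these data known, so these contrasts with all genes are a description and no test. With 2 libraries against 2, an exact permutation test of a single gene cannot go below p = 0.333.

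**Figure D1:**
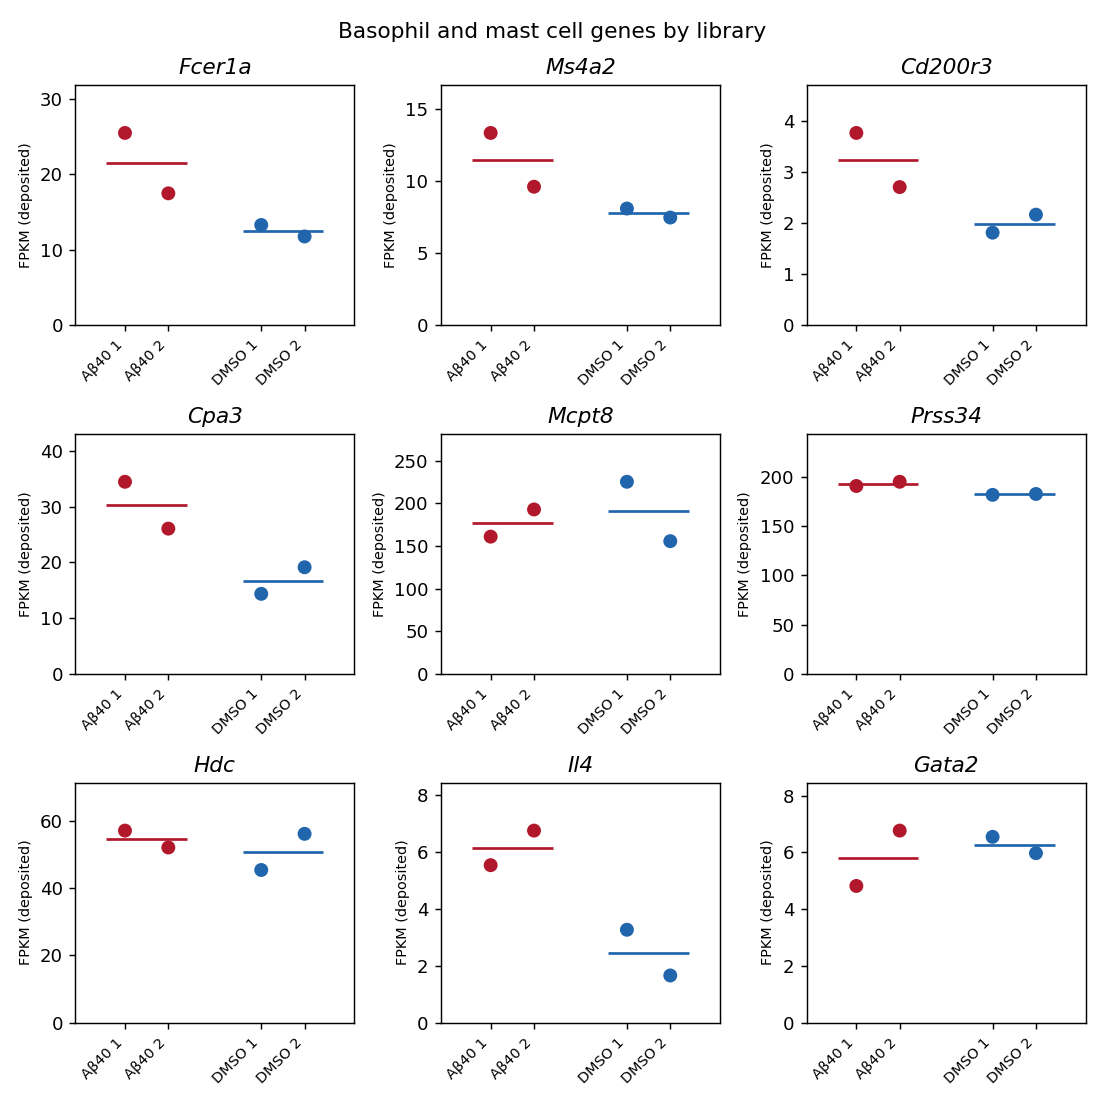
Deposited FPKM (fragments scaled by gene length and depth) of each of the 9 genes in each library, with Aβ40 in red left of DMSO in blue; points are libraries and lines are group means. Fcer1a, Ms4a2, Cd200r3, Cpa3 and Il4 are higher in both Aβ40 libraries, whereas Mcpt8, Hdc and Gata2 overlap between the groups. Prss34 is also higher in both Aβ40 libraries, but only at 191 and 195.3 FPKM against 182 and 182.9 FPKM with DMSO.

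**Figure D2:**
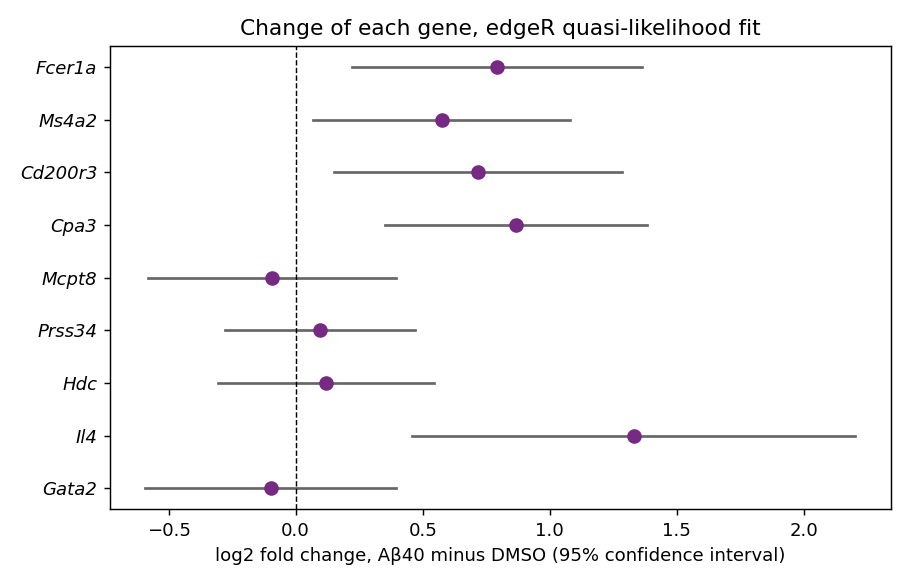
Log2 fold change of each gene, Aβ40 minus DMSO, with its 95% confidence interval from the edgeR quasi-likelihood fit of 4 libraries. The intervals of 5 genes lie above 0 and those of Mcpt8, Prss34, Hdc and Gata2 span 0; these intervals are not adjusted for the number of genes.

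The IgE receptor genes came first in the order of roles. Fcer1a (ENSMUSG00000005339, mm10 chromosome 1, 173221284 to 173227214, minus strand) encodes the α chain of FcεRI, which binds immunoglobulin E. It had 442 and 337 counts in Aβ40 1 and Aβ40 2, against 248 and 219 counts in DMSO 1 and DMSO 2, or 25.9 and 17.6 CPM against 13.3 and 11.8 CPM. Both Aβ40 libraries were above both DMSO libraries, and Aβ40 1 was further from them than Aβ40 2. The group means were 21.7 ± 5.82 CPM with Aβ40 and 12.5 ± 1.07 CPM with DMSO (SD, n = 2 each), which gave a log2 fold change of 0.79 with an SE of 0.25 (adjusted p = 0.327 by edgeR, as for the genes that follow). This is a fold of 1.73, with a 95% confidence interval from 1.17 to 2.57.

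Ms4a2 (ENSMUSG00000024680, chromosome 19, 11615523 to 11623719, minus strand) encodes the β chain, a membrane-spanning subunit that amplifies the receptor's signal. Its level was 38.1 and 27.3 CPM with Aβ40 and 22.8 and 21.1 CPM with DMSO, again highest in Aβ40 1 and without overlap between the groups. The log2 fold change was 0.57 (SE 0.22; adjusted p = 0.371), the lowest of the 5 genes with an unadjusted p under 0.05. Counts of the α chain per count of the β chain were 0.678 and 0.646 in the Aβ40 libraries and 0.582 and 0.559 in the DMSO libraries. The third subunit, the γ chain Fcer1g, is shared with Fcγ receptors that neutrophils carry. Its level was 1039 and 1004 CPM with Aβ40 against 961 and 933 CPM with DMSO, a log2 fold change of 0.11 (SE 0.18; adjusted p = 0.849).

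Cd200r3 (ENSMUSG00000036172, chromosome 16, 44943678 to 44981380, plus strand) encodes an activating relative of the CD200 receptor that mouse basophils and mast cells display. It was at 22.9 and 16.4 CPM with Aβ40 and at 10.9 and 13.01 CPM with DMSO. The groups did not overlap, though Aβ40 2 and DMSO 2 stood close together. The log2 fold change was 0.72 (SE 0.25; adjusted p = 0.338). Its neighbour and relative Cd200r2, 27.8 kb away, averaged 42.2 counts and had a log2 fold change of -0.38 (SE 0.46; adjusted p = 0.771).

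Among the granule enzymes, Cpa3 and the 2 serine proteases gave different values. Cpa3 (ENSMUSG00000001865, chromosome 3, 20215620 to 20242181, minus strand) encodes carboxypeptidase A3, which is stored in mast cell and basophil granules. It had 909 and 764 counts in the Aβ40 libraries and 408 and 542 counts in the DMSO libraries, equal to 53.2 and 39.96 CPM with Aβ40 and 21.9 and 29.1 CPM with DMSO. No DMSO library reached either Aβ40 library. The means were 46.6 ± 9.34 CPM with Aβ40 and 25.5 ± 5.14 CPM with DMSO (SD, n = 2 each), and the log2 fold change was 0.87 (SE 0.23; adjusted p = 0.263). Cpa3 had the smallest unadjusted p of the set, 0.00431, which ranked 216 among the 13479 tested genes.

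Mcpt8 (ENSMUSG00000022157, chromosome 14, 56082166 to 56085273, minus strand) encodes mast cell protease 8, a serine protease that in mice is made by basophils despite its name. Its level was 163 and 195 CPM with Aβ40 and 226 and 156 CPM with DMSO. DMSO 1 was the highest of the 4 libraries and DMSO 2 the lowest, so that the DMSO pair enclosed the Aβ40 pair. The log2 fold change was -0.09 (SE 0.22; adjusted p = 0.892), with a 95% confidence interval for the fold from 0.669 to 1.32.

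Prss34 (ENSMUSG00000056399, chromosome 17, 25298394 to 25300161, plus strand) encodes another serine protease of basophils. It varied least of the 9 genes, with 236 and 240.2 CPM in the Aβ40 libraries and 222 and 223 CPM in the DMSO libraries. The groups did not overlap, but the log2 fold change was 0.10 (SE 0.17; adjusted p = 0.854), and the confidence interval for the fold ran from 0.824 to 1.39. Scaled by library size alone it was at 228 and 239.6 CPM with Aβ40 and 212 and 241 CPM with DMSO, where the groups overlap. Prss34 made up 25.0% and 26.1% of the counts of the 9 genes with Aβ40, and 26.2% and 26.3% with DMSO.

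**Figure D3:**
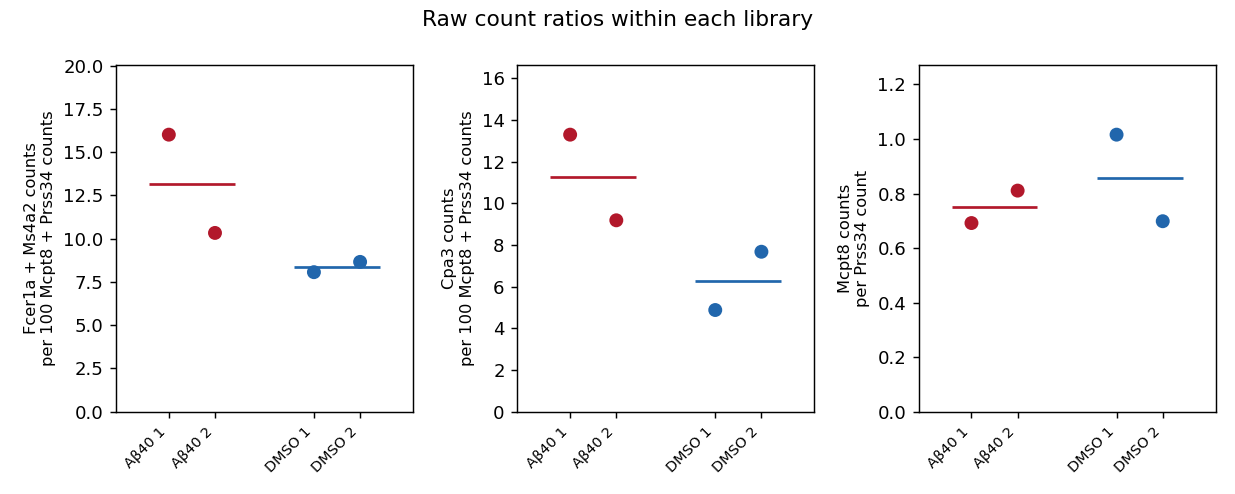
Ratios of raw counts within each library, which do not depend on how libraries are scaled, with Aβ40 in red left of DMSO in blue and lines for group means. IgE receptor chains and Cpa3 per protease count are higher in both Aβ40 libraries, most so in Aβ40 1, and the ratio of the proteases to each other overlaps between the groups.

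Within a library, ratios of counts do not depend on the scaling between libraries. Fcer1a and Ms4a2 together had 16.0 and 10.3 counts per 100 counts of Mcpt8 and Prss34 in the Aβ40 libraries, against 8.06 and 8.66 in the DMSO libraries. For Cpa3 the ratio was 13.3 and 9.19 with Aβ40 and 4.88 and 7.68 with DMSO. Both ratios were higher in both Aβ40 libraries, though Aβ40 2 was nearer to DMSO 2 than to Aβ40 1. The genes in these ratios were picked after their values were seen, so the ratios are a description with no test. Mcpt8 per Prss34 count was 0.692 and 0.811 with Aβ40 and 1.02 and 0.698 with DMSO. Cd200r3 per Ms4a2 count was 0.601 and 0.600 with Aβ40 and 0.477 and 0.617 with DMSO. In whole-culture RNA of this kind, a different number of cells of a type and a different amount of RNA per cell cannot be told apart.

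Hdc (ENSMUSG00000027360, chromosome 2, 126593667 to 126619299, minus strand) encodes histidine decarboxylase, the enzyme that makes histamine. Its level was 371 and 337 CPM with Aβ40 and 292 and 361 CPM with DMSO, and the groups overlapped. The log2 fold change was 0.12 (SE 0.19; adjusted p = 0.838). Of the 8 in the list of histamine handling and receptors 4 were tested and 0 were called in either direction, with a median of 0.12. Over all tested genes 0.126% were called higher and 0% lower. Slc18a2, the vesicular monoamine transporter that loads histamine into granules, was at 25.0 and 29.0 CPM with Aβ40 and 22.2 and 24.9 CPM with DMSO. Hnmt, which inactivates histamine by methylation, was at 0.09 (SE 0.18) on the log2 scale of change, and Hrh2, a histamine receptor of leukocytes, at -0.40 (SE 0.22; adjusted p = 0.481).

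Il4 (ENSMUSG00000000869, chromosome 11, 53602982 to 53618669, minus strand) encodes interleukin 4, the cytokine of type 2 immunity that basophils secrete on activation. It rested on the fewest counts of the set, 118 and 160 counts in the Aβ40 libraries and 75 and 38 in the DMSO libraries. Exact Poisson intervals at 95%, which cover counting error only, ran from 97.7 to 141 and from 136 to 187 counts with Aβ40, and from 59.0 to 94.0 and from 26.9 to 52.2 counts with DMSO. The 2 Aβ40 intervals lay above both DMSO intervals, and the DMSO libraries also differed from each other beyond counting error. In CPM, Il4 averaged 7.64 ± 1.04 with Aβ40 and 3.03 ± 1.40 with DMSO (SD, n = 2 each). Its log2 fold change of 1.33 (SE 0.38; adjusted p = 0.293) was the largest of the set and ranked 315 of 13479. The fold was 2.52, with a wide confidence interval from 1.38 to 4.60.

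Il13, Il5, Il3 and Il9 had at most 22 counts in a library. Il13, which signals through a receptor chain that interleukin 4 also uses, had 0 and 0 counts with Aβ40 and 0 and 2 with DMSO, and Il5 had 22 and 7 counts with Aβ40 and 0 and 3 with DMSO. Il3, the growth factor of basophils, and Il9 had 0 counts in all 4 libraries, which allows up to 3 counts in each, or between 0.157 and 0.175 CPM. Kif3a, a kinesin gene on the opposite strand 1.01 kb from Il4, had a log2 fold change of 0.74 (SE 0.40; adjusted p = 0.482). No source used here says whether the counting took strand into account.

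Gata2 (ENSMUSG00000015053, chromosome 6, 88193891 to 88207032, plus strand) encodes the transcription factor that basophil, mast cell and early progenitor identity depends on. It was at 26.4 and 36.9 CPM with Aβ40 and 35.5 and 32.4 CPM with DMSO, with the highest and the lowest value both in the Aβ40 group. The log2 fold change was -0.10 (SE 0.22; adjusted p = 0.886). In the list of 17 partners of GATA2 and lineage factors all were tested, with a median of -0.17. Of these 17, 0 were called, against 0.126% of all tested genes called higher and 0% lower. Most abundant were the myeloid factor genes Spi1, at -0.37 (SE 0.18), and Cebpb, at -0.66 (SE 0.29). Cebpb had 538 CPM in DMSO 1 and 287 CPM in DMSO 2, against 219 and 302 CPM in the Aβ40 libraries, so the groups overlapped. Gata3, a T cell and type 2 factor gene, was barely detected, at a mean of 0.894 CPM.

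Per gene length the set spanned a wide range of levels, in the order Prss34, Mcpt8, Hdc, Cpa3, Fcer1a, Ms4a2, Gata2, Il4 and Cd200r3 by mean FPKM. Prss34 averaged 193 ± 3.04 FPKM with Aβ40 and 182 ± 0.665 FPKM with DMSO, and Mcpt8 177 ± 22.6 FPKM with Aβ40 and 190.5 ± 49.3 FPKM with DMSO (SD, n = 2 each). The proteases ranked 288 and 297 of the 13479 tested genes by mean FPKM and could not be ordered beyond their spread. Hdc followed at 54.6 ± 3.55 FPKM with Aβ40 and 50.8 ± 7.61 FPKM with DMSO. Cpa3 had 30.2 ± 5.95 and Fcer1a 21.5 ± 5.66 FPKM with Aβ40, and 16.7 ± 3.37 and 12.5 ± 1.07 FPKM with DMSO. In either group these neighbours differed by less than the sum of their SDs. Ms4a2 averaged 11.5 ± 2.64 FPKM with Aβ40 and 7.77 ± 0.442 FPKM with DMSO. Gata2 and Il4 were close with Aβ40, at 5.79 ± 1.38 and 6.14 ± 0.858 FPKM, and apart with DMSO, at 6.26 ± 0.408 and 2.46 ± 1.14 FPKM. Cd200r3 was lowest by mean over all libraries, at 3.24 ± 0.751 FPKM with Aβ40 and 1.99 ± 0.250 FPKM with DMSO, where it lay within the spread of Il4. Sequence shared with other genes touched few of these levels: of all stretches of 50 bases in the annotated transcripts, 2.10% in Ms4a2, 2.79% in Cd200r3 and 0.141% in Hdc also occurred in transcripts of other genes, and 0% in the other six.

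**Figure D4:**
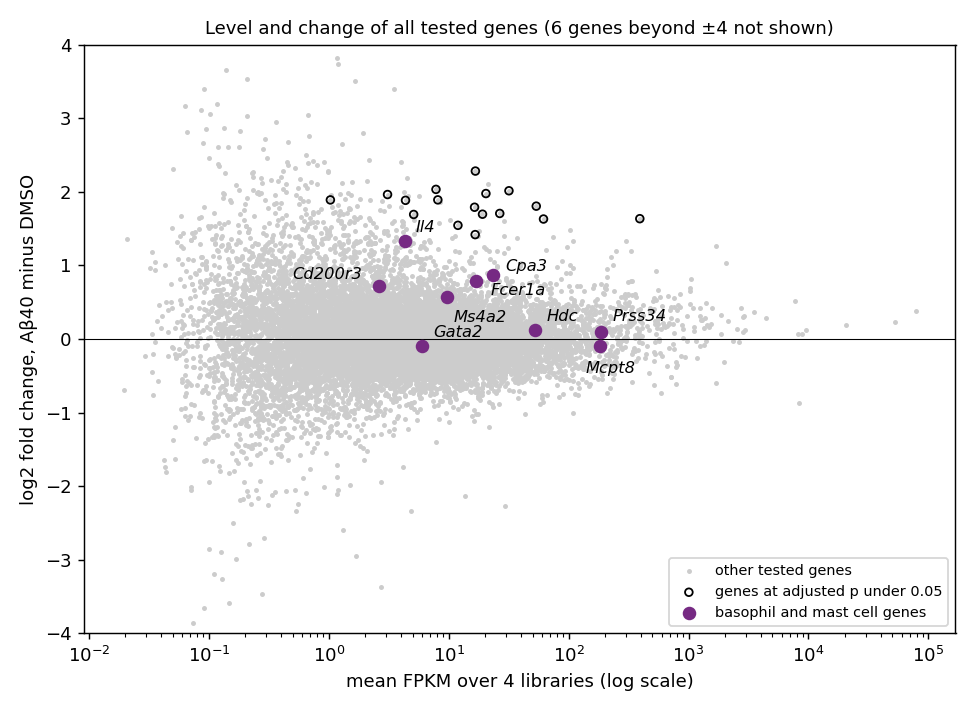
Mean FPKM over 4 libraries (horizontal, log scale) against log2 fold change, Aβ40 minus DMSO (vertical), for the tested genes in grey, genes at an adjusted p under 0.05 circled and the 9 genes in purple; 6 genes beyond ±4 are not shown. Mcpt8 and Prss34 have the highest mean FPKM of the set and lie near 0, and Il4 is its highest member in fold change.

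Proteases and receptors that mark mature mast cells of tissues were almost not counted. Of 10 such genes 6 had 0 counts in all 4 libraries, namely the chymase family genes Mcpt2, Mcpt4 and Mcpt9, the tryptase gene Tpsb2 and the receptor genes Mrgprb1 and Mrgprb2. No gene of the 10 exceeded 10 counts in a library. Cma1, mast cell chymase, had 5 and 10 counts with Aβ40 and 0 and 0 with DMSO, and Tpsab1, another tryptase gene, had 1 and 0 counts with Aβ40 and 3 and 0 with DMSO. A count of 0 in a library allows up to 3 counts, so the 6 genes at 0 throughout were not detectable at this depth. The list also holds Kit, the stem cell factor receptor, which progenitors express as well, and Mitf, a transcription factor of mast cells. Kit was at 45.3 and 51.7 CPM with Aβ40 and 58.8 and 56.9 CPM with DMSO, a log2 fold change of -0.25 (SE 0.17; adjusted p = 0.589), and Mitf was at -0.19 (SE 0.20). Against this, Mcpt8 and Prss34, which mark mouse basophils, had between 2794 and 4592 counts in every library.

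Other genes of the IgE and interleukin 3 pathways gave no call, in a comparison with 0.126% of tested genes called higher and 0% lower. All 20 genes of IgE and IL-3 receptor signalling were tested, with 0 called, 6 positive and 14 negative log2 fold changes and a median of -0.11. Il3ra, the α chain of the interleukin 3 receptor, was lowest of the list at 23.9 and 37.6 CPM with Aβ40 and 55.7 and 42.1 CPM with DMSO. Both Aβ40 libraries lay below both DMSO libraries, and the log2 fold change was -0.67 (SE 0.25; adjusted p = 0.360). Ptpn6, the abundant phosphatase SHP-1, was at 0.02 (SE 0.18), and Lat, a scaffold of antigen receptor signalling shared with T cells, was highest at 0.61 (SE 0.40; adjusted p = 0.567).

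Basophil surface receptors numbered 18 symbols, of which 16 were tested and 0 called, against 0.126% of tested genes called higher and 0% lower. The 16 had 8 positive and 8 negative values and a median of 0.04. The largest belonged to Ccr3, the eotaxin receptor, which eosinophils carry too. Its level was 55.0 and 45.1 CPM with Aβ40 and 26.2 and 23.3 CPM with DMSO, a log2 fold change of 1.02 (SE 0.20; adjusted p = 0.127). Il6ra, an interleukin 6 receptor gene that neutrophils express, was the smallest at -0.48 (SE 0.17; adjusted p = 0.342), and the tetraspanin genes Cd9 and Cd63 were at 0.15 (SE 0.19) and -0.004 (SE 0.20). Among 20 mediator genes 14 were tested and 0 called, with a median of -0.02. Il6 was largest at 0.86 (SE 0.24; adjusted p = 0.277), and Ptgs1, cyclooxygenase 1, smallest at -0.52 (SE 0.18; adjusted p = 0.334). Srgn, the proteoglycan core of granules in many leukocytes, was at 0.19 (SE 0.21) and Alox5ap, the leukotriene synthesis protein, at -0.13 (SE 0.28).

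For interleukin 4 itself, a list of 23 receptor and response genes had 22 tested and 0 called. Over all tested genes 0.126% were called higher and 0% lower. The 22 had 13 positive and 9 negative values and a median of 0.03. At an unadjusted p under 0.05 (edgeR), 3 were higher and 0 lower, against 6.51% and 5.72% of tested genes. The 3 were Mrc1, Alox15 and Irf4, and the marker lists below hold Mrc1 for macrophages and Alox15 for eosinophils. Mrc1, the mannose receptor of macrophages, was largest, at 7.08 and 5.96 CPM with Aβ40 and 2.14 and 2.26 CPM with DMSO (log2 fold change 1.56, SE 0.34; adjusted p = 0.187). Ccl24, an eotaxin gene, was smallest at -0.35 (SE 0.30), and Stat6, the transcription factor that the interleukin 4 receptor activates, was at -0.23 (SE 0.17). Chil3, a chitinase-like gene that neutrophil precursors express strongly, was the most abundant at 7539 and 5541 CPM with Aβ40 and 4650 and 5535 CPM with DMSO.

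Summed levels of eosinophil, B cell, T and NK cell, and monocyte and macrophage markers were higher in both Aβ40 libraries, and those of progenitor and of erythroid and platelet markers overlapped between the groups. Summed over 10 eosinophil markers the level was 3684 and 3742 CPM with Aβ40 and 1687 and 1405 CPM with DMSO, and 1 of them, the ribonuclease gene Ear6, was called. That list also holds Ccr3. Over 12 B cell markers it was 1273 and 1280 CPM with Aβ40 and 552 and 643 CPM with DMSO, with 7 called. Over 13 T and NK cell markers it was 114 and 120.0 CPM with Aβ40 and 72.9 and 71.4 CPM with DMSO, with 1 called among 12 tested, Gzmb, and with the NK cell receptor gene Ncr1 at 0 in DMSO 2. Eosinophil, B cell, and T and NK cell markers had median log2 fold changes of 1.20, 1.67 and 1.34. Other sums were 3725 and 3179 CPM with Aβ40 against 2799 and 2757 CPM with DMSO for 11 monocyte and macrophage markers. Most of each came from Ly6c2, at 2615 and 2233 CPM with Aβ40 and 1871 and 1718 CPM with DMSO. Of these 11, 5 lay above DMSO without overlap and 2, Csf1r and Cx3cr1, below it, against 23.2% and 21.9% of tested genes. For 9 progenitor markers the sums were 247 and 280.3 CPM with Aβ40 against 258 and 243 CPM with DMSO. For 10 erythroid and platelet markers the sums were 3110 and 3306 CPM with Aβ40 and 4646 and 1935 CPM with DMSO. In these 3 lists 0 were called. Over all tested genes 0.126% were called higher and 0% lower, the share to set beside the calls of every list here. The summed level of the 9 basophil and mast cell genes was 945 and 918 CPM with Aβ40 and 848 and 849.7 CPM with DMSO, most of it from Hdc, Prss34 and Mcpt8. The part of other cell types in the values of Il4, Ccr3 and the receptor genes was not tested.

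**Figure D5:**
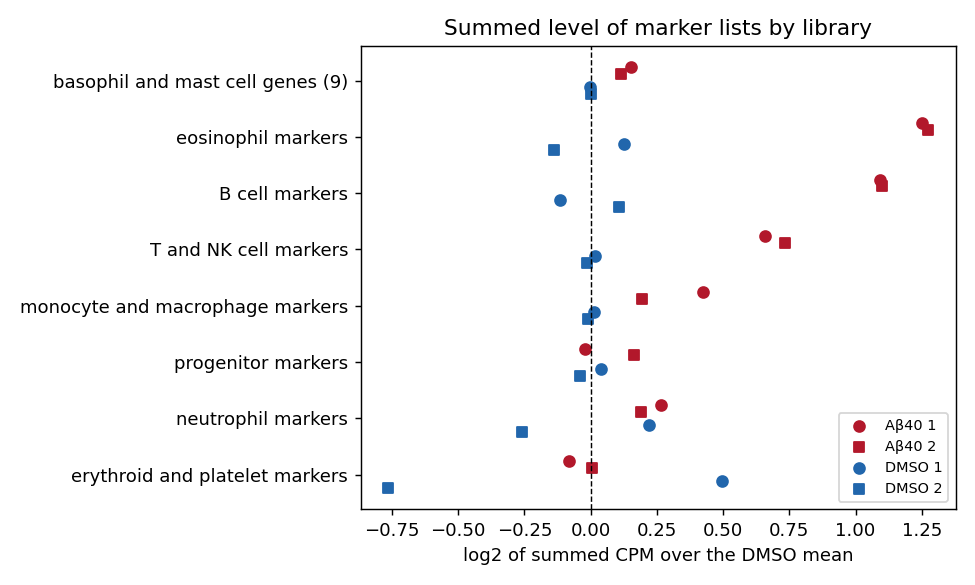
Summed CPM of each marker list in each library, as log2 over the mean of the DMSO libraries, with Aβ40 in red above DMSO in blue and circles and squares for libraries 1 and 2. Eosinophil, B cell and T and NK cell sums are higher in both Aβ40 libraries. The sum of the 9 basophil and mast cell genes is 945 and 918 CPM with Aβ40 and 848 and 849.7 CPM with DMSO. Most of that sum comes from Hdc, Prss34 and Mcpt8.

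Log2 fold changes of the 9 genes moved when a single library was left out. Without DMSO 1, Fcer1a, Ms4a2, Cd200r3, Cpa3 and Il4 were at 0.88, 0.63, 0.59, 0.675 and 1.90. Without DMSO 2 the same genes were at 0.70, 0.51, 0.84, 1.08 and 0.92. Without Aβ40 1 they were at 0.49, 0.31, 0.45, 0.65 and 1.46. Without Aβ40 2 they were at 1.03, 0.78, 0.92, 1.04 and 1.17. In these fits of 3 libraries the lone library of a group is assumed to vary like the others, and calls from them rest on that. Whether such shifts were particular to the 9 genes was not tested.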

How the data were processed

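The 4 RNA sequencing libraries, 2 with Aβ40 and 2 with DMSO, were built from total RNA (Qiagen and Illumina kits, per the labels' protocols). HISAT2 2.0.5, featureCounts 1.5.0-p3 and mm10 are named in the submitters' processing notes, without role or order. No source used here gives strandedness or annotation release.

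The authors deposited raw read counts per gene, used as they are, and FPKM. On the values, FPKM were counts per gene length and per effective library size, the latter in proportion to median-ratio size factors. Counts were fitted in R 4.3.3 with edgeR 4.0.16: filterByExpr left 13479 genes, scaling was by TMM, and the quasi-likelihood test (2-sided, intercept and group) was adjusted by Benjamini-Hochberg over all tested genes and called at 0.05. The fit was also run on simulated counts, with no outcome given here. Alternatives changed scaling, filter, tool (DESeq2 1.42.0; limma 3.58.1 with voom or log2 FPKM), block or libraries.

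The 9 genes, the 7 other pathway lists and the 7 lists of cell types were chosen with earlier results of these data known. Of 206 list symbols 1, Cd244, was not matched by symbol. Genes outside the 9 were named if called, among the 2 most abundant of a list by FPKM, or its largest or smallest in log2 fold change. From lists of cell types only some of these are given. Named after their values were seen were the scarce genes under the filter, Alox15, Irf4, Csf1r, Cd200r2, Kif3a and the neighbours in the closing section.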

Additional observations from a re-analysis of the deposited data

How the results depend on the processing

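Of the 9 genes, Fcer1a, Ms4a2, Cd200r3, Cpa3, Il4 and Prss34 kept a positive log2 fold change in all 16 alternatives run, 15 planned and 1 added. Leaving out single libraries gave log2 fold changes from -0.34 to 0.20 for Mcpt8, from -0.027 to 0.27 for Hdc and from -0.38 to 0.12 for Gata2, which changed sign. The other six ran from 0.07 to 0.11 for Prss34, 0.65 to 1.08 for Cpa3, 0.49 to 1.03 for Fcer1a, 0.31 to 0.78 for Ms4a2, 0.45 to 0.92 for Cd200r3 and 0.92 to 1.90 for Il4. Genes called higher, 17 by edgeR as reported, were 102 with DESeq2, 185 with no filter and 0 with limma on log2(FPKM + 1) or log2(FPKM + 0.1), and genes called lower, 0 as reported, were 33, 70, 0 and 0. With library size alone 1 was called lower. Leaving out single libraries gave 0 to 705 genes called higher and 0 to 479 lower, and 0 to 3 of the 9 genes higher. With no filter, 2 of the 9 were called higher, Cpa3 (adjusted p = 0.0202) and Il4 (adjusted p = 0.0247), in a fit of 21760 genes. Over all alternatives the adjusted p ran from 0.000143 to 0.999 for Cpa3 and from 0.00206 to 0.999 for Il4. The cause was not tested.

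The labels do not say that replicate numbers pair the libraries, and deviations of same-numbered libraries correlated at -0.226 over the tested genes. With the replicate block 27 genes were called higher and 0 of the 9. A crossed block, chosen after seeing the data, called 445 genes higher and 276 lower, and 4 of the 9 higher.

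Precision was limited by 2 libraries a group and, for Il4, by counts as low as 38 in a library.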

Other observations

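Genes next to the basophil and mast cell genes gave no call within 100 kb, against 0.126% of tested genes called higher and 0% lower. Ctsg, cathepsin G of neutrophil granules, lies 14.6 kb from Mcpt8 in the same protease cluster and had a log2 fold change of 0.59 (SE 0.18; adjusted p = 0.317, edgeR), against -0.09 for Mcpt8. Ms4a3, a gene of granulocyte precursors 5.78 kb from Ms4a2, was at 0.11 (SE 0.18; adjusted p = 0.844), and Ms4a6d, 10.7 kb from it, at 0.45 (SE 0.24; adjusted p = 0.475). Gabpb1, 8.14 kb from Hdc, was at -0.26 (SE 0.18; adjusted p = 0.587).

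The summed level of the set without Hdc was followed most closely over the 4 libraries by Ddx27, Mcm6, Lzic, Eif3a and Arhgdib, with root-mean-square differences of centred log2 CPM between 0.0162 and 0.0179. Among 8871 coding genes averaging 5 CPM or more, 814 came within 0.1, so likeness over 4 libraries sets few genes apart.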
